A study of Mus musculus with 15 samples.

Results

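The genes described are the vomeronasal receptor genes of the mouse, taken as every array probe whose gene name in the scanner files starts with V1r, V2r, Vmn1r or Vmn2r. They gave 560 of 121741 non-control probes: 269 on part 1 and 165 on part 2 of a promoter array, and 126 on an expression array. The type 1 family (V1r) held 259, 165 and 117 of these probes. The type 2 family (V2r) held 10, 0 and 9, so anything said of it rests on few probes. Under their file names the members were 129 of 31358 genes (122 type 1 and 7 type 2), with 77 genes on the promoter arrays and 122 on the expression array, 70 of them on both.

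The study compared mouse embryonic stem (ES) cells of the wild-type line J1 with TKO cells, labelled as deficient in DNA methylation. TKO ES cells are known as mutants of Dnmt1, Dnmt3a and Dnmt3b, the enzymes that methylate DNA, and their probes gave log2(TKO/J1) of -1.07, -2.36 and -2.50 here. The dye of each line was itself taken partly from Dnmt3b, so the direction of these values is no independent check. Both lines grew without feeder cells for 2 passages before harvest, and the labels name passage 37 of J1 for replicates 1 and 3 of part 1. DNA carrying methylated cytosine was immunoprecipitated (MeDIP) from 2 ug of genomic DNA and hybridised on promoter arrays, 7 arrays for each of the 2 parts of the design. RNA of the same lines was compared on 3 expression arrays, deposited as 1 sample. Each array held both lines in different dyes, so an array gives 1 ratio. A single line stands for each genotype, so the p-values cover the spread between arrays and not between lines. On the promoter arrays 88.2% to 99.7% of all probes were well above background in each channel, and the number of arrays limits the precision.

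Vomeronasal receptors are G protein-coupled receptors of sensory neurons in the vomeronasal organ, where they detect pheromones and other social odours. Type 1 receptors work with the G protein subunit Gnai2 and have their coding sequence in a single exon. Type 2 receptors have a long extracellular domain, work with Gnao1 and are found together with H2-M10 molecules, which are related to the class I histocompatibility proteins. Signals of both types pass through the ion channel Trpc2. A V1r letter (V1ra, V1rb and so on) names a subfamily of close copies that lie in clusters, so a probe can pick up more than 1 copy, which was not tested.

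Around their annotated starts the receptor genes hold few CpG sites, the dinucleotide that is methylated in mammals and that the antibody needs. The RefSeq promoter windows of GRCm38.p6 run from 250 bases before to 50 bases after each start. Of the 81 member promoters tested, 72 had exactly 1 window under their symbol. The other 9 are left out of the CpG values, among them V1re1 and V1re11, which are called further below. Among the 72, the 69 of type 1 held a median of 1 CpG (range 0 to 6), and 22 of them (31.9%) held none. Over all 32851 windows the median was 7 and 5.43% held none. The median GC content was 34% against 52.7%. The 2 type 2 windows held 3 and 1. All 206 Vmn1r windows and all 118 Vmn2r windows of the table also had medians of 1. In the windows printed below, except that of V2r14, the bases after the start open with ATG, the start codon of a protein. These starts may thus be those of the coding sequence. Whether the windows hold the site where transcription begins was not tested.

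The windows below are those of the promoters the results turn on, each read along the strand of its gene with every CpG in capitals. V1ri7 (Vmn1r202, chr13:22502196-22502495, minus strand) had the lowest ratio of all members, and V1rf3 (Vmn1r237, chr17:21313767-21314066, plus) was also called. V1ra9 (Vmn1r54, chr6:90268856-90269155, plus) was the lowest of the V1ra genes. V1rb8 (Vmn1r46, chr6:89975921-89976220, plus) was the member with the brightest RNA signal among those tested. V1rc28 (Vmn1r21, chr6:57844408-57844707, minus) had the highest ratio. V2r1b (Vmn2r26, chr6:124024508-124024807, plus) and V2r14 (Vmn2r37, chr7:9223604-9223903, minus) are the 2 type 2 promoters.
V1ri7: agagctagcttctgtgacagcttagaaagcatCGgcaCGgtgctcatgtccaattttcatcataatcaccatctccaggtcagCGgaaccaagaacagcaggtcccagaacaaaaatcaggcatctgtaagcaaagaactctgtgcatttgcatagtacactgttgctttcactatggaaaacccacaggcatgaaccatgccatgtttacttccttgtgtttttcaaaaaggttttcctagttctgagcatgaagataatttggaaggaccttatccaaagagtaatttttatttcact
V1rf3: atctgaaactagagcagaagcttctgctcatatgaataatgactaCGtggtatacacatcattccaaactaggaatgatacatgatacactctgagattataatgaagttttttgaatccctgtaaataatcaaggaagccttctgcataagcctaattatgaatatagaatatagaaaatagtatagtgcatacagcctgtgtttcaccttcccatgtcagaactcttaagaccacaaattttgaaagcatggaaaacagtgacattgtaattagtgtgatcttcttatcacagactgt
V1ra9: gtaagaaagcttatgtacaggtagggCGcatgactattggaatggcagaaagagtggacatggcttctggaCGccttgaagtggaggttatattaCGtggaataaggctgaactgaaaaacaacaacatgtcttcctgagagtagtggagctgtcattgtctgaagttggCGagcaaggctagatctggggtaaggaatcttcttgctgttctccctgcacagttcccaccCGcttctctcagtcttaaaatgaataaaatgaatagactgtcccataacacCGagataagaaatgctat
V1rb8: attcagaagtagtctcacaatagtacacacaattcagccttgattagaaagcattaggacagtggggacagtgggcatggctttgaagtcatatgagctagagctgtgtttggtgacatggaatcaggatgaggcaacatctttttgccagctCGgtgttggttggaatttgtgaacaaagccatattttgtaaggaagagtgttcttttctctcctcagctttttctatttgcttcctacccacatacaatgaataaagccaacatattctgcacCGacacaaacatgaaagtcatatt
V1rc28: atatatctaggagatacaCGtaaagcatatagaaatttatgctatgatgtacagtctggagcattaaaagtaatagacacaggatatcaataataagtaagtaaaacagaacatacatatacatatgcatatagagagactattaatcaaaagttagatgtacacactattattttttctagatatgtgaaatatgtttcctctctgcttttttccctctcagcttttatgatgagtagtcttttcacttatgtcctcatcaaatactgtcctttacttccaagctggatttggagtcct
V2r1b: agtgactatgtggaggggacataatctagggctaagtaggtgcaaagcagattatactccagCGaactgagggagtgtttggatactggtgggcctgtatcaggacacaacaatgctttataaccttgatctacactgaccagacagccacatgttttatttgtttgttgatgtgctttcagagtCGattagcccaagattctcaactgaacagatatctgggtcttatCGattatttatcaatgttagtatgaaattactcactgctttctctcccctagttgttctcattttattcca
V2r14: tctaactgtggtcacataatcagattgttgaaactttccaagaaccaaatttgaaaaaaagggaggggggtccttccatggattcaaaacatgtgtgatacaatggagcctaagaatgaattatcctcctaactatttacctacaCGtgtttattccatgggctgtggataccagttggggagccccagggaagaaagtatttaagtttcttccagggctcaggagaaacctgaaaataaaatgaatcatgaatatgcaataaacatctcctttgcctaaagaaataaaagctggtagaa
The windows of V1ri7 and V2r1b hold 3 CpG sites each and that of V1ra9 holds 6, while those of V1rf3, V1rc28 and V2r14 hold 1 and that of V1rb8 holds 2. Across the 69 type 1 promoters the MeDIP ratio had a Spearman correlation of -0.334 (Pearson -0.298) with the number of CpG sites in the window. The ratio averages probes over a longer stretch than the window, for V1ri7 from -723 to 223 bp of the start used by the array. The correlation is a description across genes that share arrays and base composition.

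A promoter's MeDIP value is the mean over its probes of log2(labelled J1/labelled TKO), after each array was centred on its median. Values above 0 (the labelled J1 side) mean a higher J1 (Cy3) to TKO (Cy5) signal ratio than at the array's median probe. Values below 0 (the labelled TKO side) mean a lower ratio than that. Because of the centring, 0 is not equal signal, and a value below 0 does not by itself mean more signal in TKO. The labels give the same dyes on all 14 arrays, so dye and line cannot be told apart, and the direction rests on the labels alone. If these labels were turned, the sign of every MeDIP ratio below would turn, while those of the expression ratios would not. A promoter was called when the adjusted p was under 0.05 (limma against 0, Benjamini-Hochberg over all 14529 promoters) and its mean lay at least 0.5 from 0. Of 83 member regions, 81 had the 3 probes needed. They were 78 type 1 promoters, 2 type 2 promoters and 1 region that carries the name V1re6 but lies nearest to Fpr-rs3, a formyl peptide receptor of the same organ, with a ratio of -0.18 ± 0.15 (SD, n = 7). The remaining 2 regions held 3 probes in all.

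Type 1 promoters lay mostly on the labelled TKO side, by small amounts. Of 78, 67 had a mean below 0, with a median of -0.13 against -0.0032 over all promoters, and they ranged from -0.76 to 0.28. Of these 78, 6 (7.69%) were called on the labelled TKO side, where 2.63% of all promoters were called, and 0 on the labelled J1 side, where 0.0826% were. At any size, 39 passed the adjusted p on the labelled TKO side (31% of all promoters did) and 3 on the J1-labelled side (25.6% of all did), while 36 did not pass. All 7 arrays lay below 0 for 28 type 1 promoters, against 23.7% of all promoters, and for 0 did all 7 lie above.

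The calls depended on how weak signals were treated. The type 1 promoters were dim: their median signal on the log2 scale was 7.89 against 9.81 over all promoters, and 256 of their 416 probes (61.5%) were well above background in both channels on all 7 arrays, against 87.8% of all probes. The ratio rose with the signal across the 78 promoters (Spearman 0.408), as it did across all 14529 (0.366). With only those bright probes kept, 49 type 1 promoters remained, 0 were called and the median was -0.08. V1rg7, V1re11 and V1rf3, 3 of the 6 called promoters, had too few bright probes to be tested there, and the other 3 were at -0.40 (V1ri7), -0.39 (V1rg3) and -0.27 (V1re1), with adjusted p of 6.1e-07, 2e-06 and 5.4e-05. With normexp background correction and median centring the median turned to 0.04, against 0.03 over all promoters, and 0 were called. With normexp and loess it was -0.05, against 0.0044 over all promoters, and 0 were called. The part that signal plays in the ratios was not tested beyond these values.

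**Figure D1:**
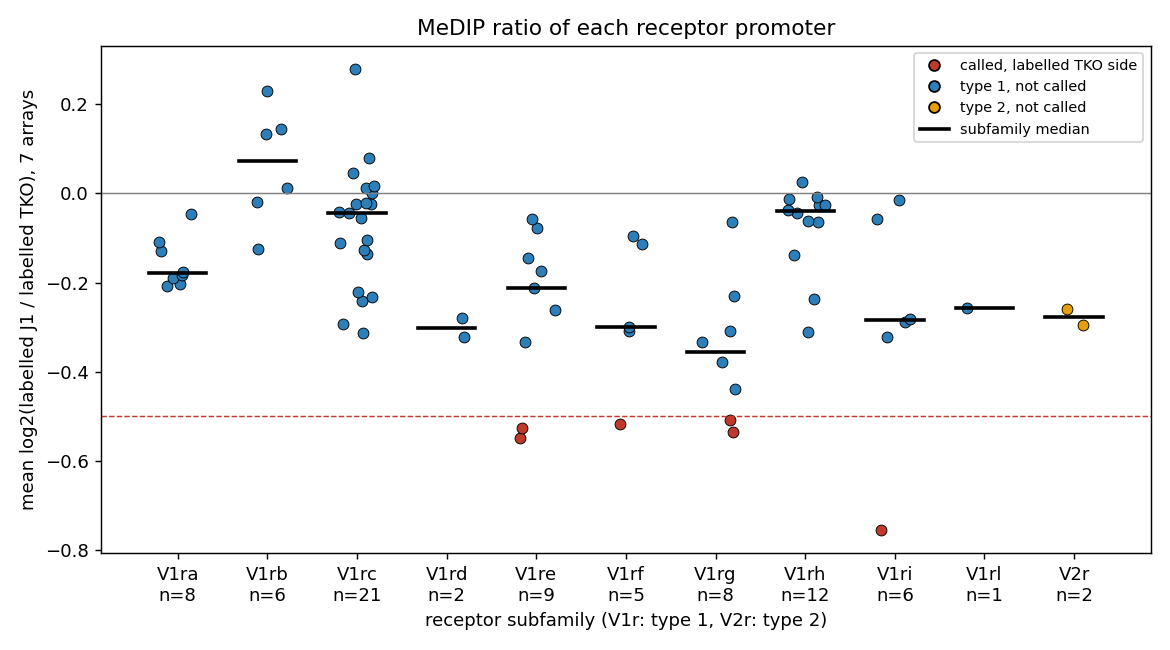
Each point is a receptor promoter at its mean log2(labelled J1/labelled TKO) over 7 arrays (y axis), by subfamily (x axis, with the number of promoters); bars are subfamily medians, red points are called, and the dashed line is the size a call needs. The 8 V1rg promoters lie lowest as a group with a median of -0.36, and V1rb has the only median above 0 (0.07).

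The lowest member was V1ri7, at -0.58, -0.84, -0.73, -0.41, -1.15, -0.68 and -0.89 on replicates 1 to 7 of part 2. All 7 arrays lay below 0, with a mean of -0.76 ± 0.24 (SD, n = 7; adjusted p = 2.1e-05). Its 6 probes did not share 1 value: those at -276 and 223 bp from the start were at -1.01 and -1.22, while those at -723 and -163 bp were at -0.20 and -0.26. The probes at -276 and 223 bp were the dimmest, with log2 signals of 5.31 and 5.61 against 9.71 at -723 bp. With normexp and median centring the V1ri7 ratio was 0.0052.

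V1re1 (Vmn1r229) had the smallest spread of the called promoters, from -0.69 to -0.37 over the arrays, with a mean of -0.55 ± 0.10 (adjusted p = 6.9e-06). V1rf3 averaged -0.52 ± 0.14 (adjusted p = 1.7e-05), with replicate 3 at -0.22 and the other arrays between -0.66 and -0.51. V1rg3 (Vmn1r80) averaged -0.51 ± 0.17 (adjusted p = 3.9e-05), from -0.68 to -0.25. V1re1, V1rf3 and V1rg3 lay below 0 on all 7 arrays.

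V1rg7 (Vmn1r78) and V1re11 (Vmn1r66) had wider spreads. V1rg7 ran from -0.98 to -0.16, with a mean of -0.53 ± 0.26 (adjusted p = 0.00027). V1re11 was at -1.10 on replicate 5 and between -0.57 and -0.29 on the others, with a mean of -0.53 ± 0.28 (adjusted p = 0.00047). Just past the size limit lay V1rg3, and just short of it V1rg12 (Vmn1r82) at -0.44 ± 0.23, with all 7 arrays below 0. Leaving out 1 array ended the call of V1re11 (without replicate 5, -0.43), V1rf3 (without replicate 5 of part 2, -0.49), V1rg7 (without replicate 6, -0.46) and V1rg3 (without replicate 3, 5 or 6, all -0.49 or -0.48). Their adjusted p stayed under 0.05 in each case, at 0.00013, 4.2e-05, 0.00023 and 0.00018 or less, so only the size limit was missed.

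At the other end, V1rc28 averaged 0.28 ± 0.35 (adjusted p = 0.039) and V1rb4 (Vmn1r44) 0.23 ± 0.32 (adjusted p = 0.058). Each mean leaned on 1 array: V1rc28 was at 1.02 on replicate 6 and at 0.16 without it, and V1rb4 was at 0.92 on replicate 4 and at 0.11 without it. The 4 probes of V1rb4 lie from -1534 to -630 bp, so none is close to the start. V1rb8 was at 0.09, 0.10, -0.02, 0.21, 0.25, 0.07 and 0.32 on replicates 1 to 7, with a mean of 0.15 ± 0.12 (adjusted p = 0.013). Its value lay between 0.12 and 0.17 under every alternative run, normexp included. V1rb8, V1rb3 (Vmn1r53, 0.13 ± 0.10) and V1rc28 were the 3 type 1 promoters with a positive mean that passed the adjusted p.

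**Figure D2:**
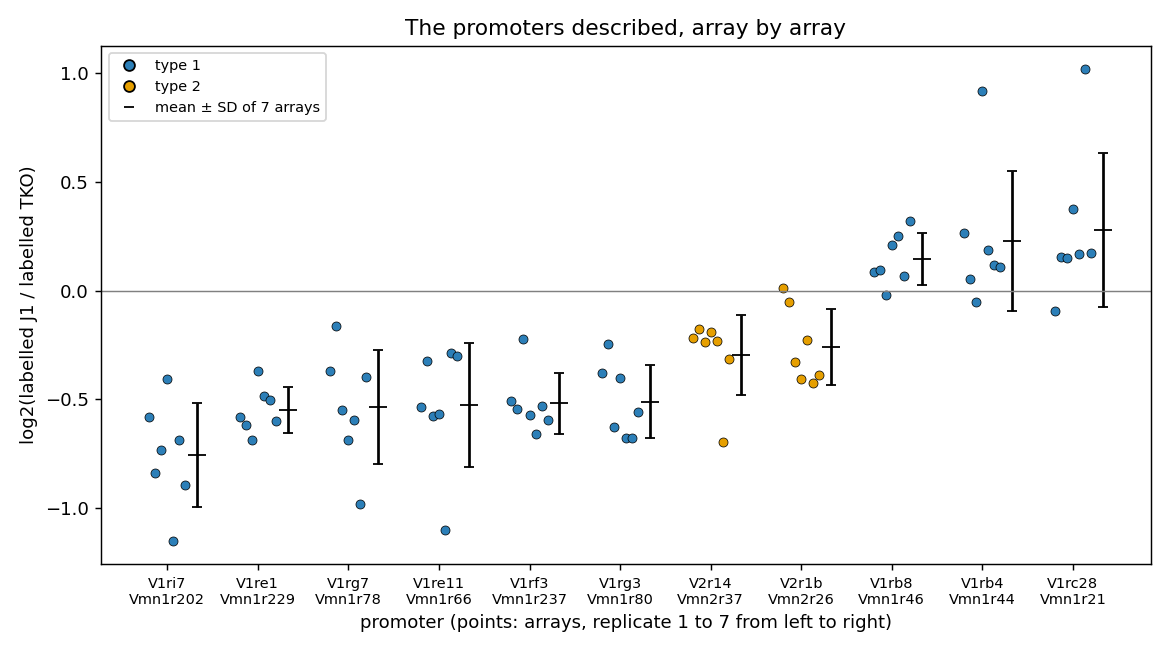
Points are log2(labelled J1/labelled TKO) on each of 7 arrays (y axis) for the 6 called type 1 promoters, the 2 type 2 promoters and the 3 highest type 1 promoters (x axis, file name above current symbol); bars are mean ± SD. V1re1 has the tightest points of the called promoters, and single arrays at 1.02 and 0.92 stand far above the rest for V1rc28 and V1rb4.

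The type 2 promoters lay at -0.29 ± 0.18 for V2r14 (adjusted p = 0.0015) and -0.26 ± 0.18 for V2r1b (adjusted p = 0.0027), and neither was called. V2r14 was at -0.22, -0.18, -0.23, -0.19, -0.23, -0.70 and -0.31 on replicates 1 to 7, all below 0. V2r1b was at 0.01, -0.05, -0.33, -0.40, -0.22, -0.42 and -0.39. The V2r14 probe 158 bases after the start, was at -0.47, the lowest of its 5 probes. With normexp and median centring V2r14 stayed at -0.23 (adjusted p = 0.00011) and V2r1b came to -0.01 (adjusted p = 0.83).

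Against type 1, the median of the 2 type 2 promoters was lower by a difference of -0.15 (-0.28 against -0.13). On the 7 arrays of part 1, the difference of type 2 minus type 1 medians ran from 0.02 on replicate 1 to -0.47 on replicate 6, and was below 0 on 6. Without replicate 6 it was -0.08. With only 2 type 2 promoters the families are set side by side as a description, with no p. From the lowest mean, V2r14 stood at rank 18 and V2r1b at rank 24 of the 81 member regions.

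**Figure D3:**
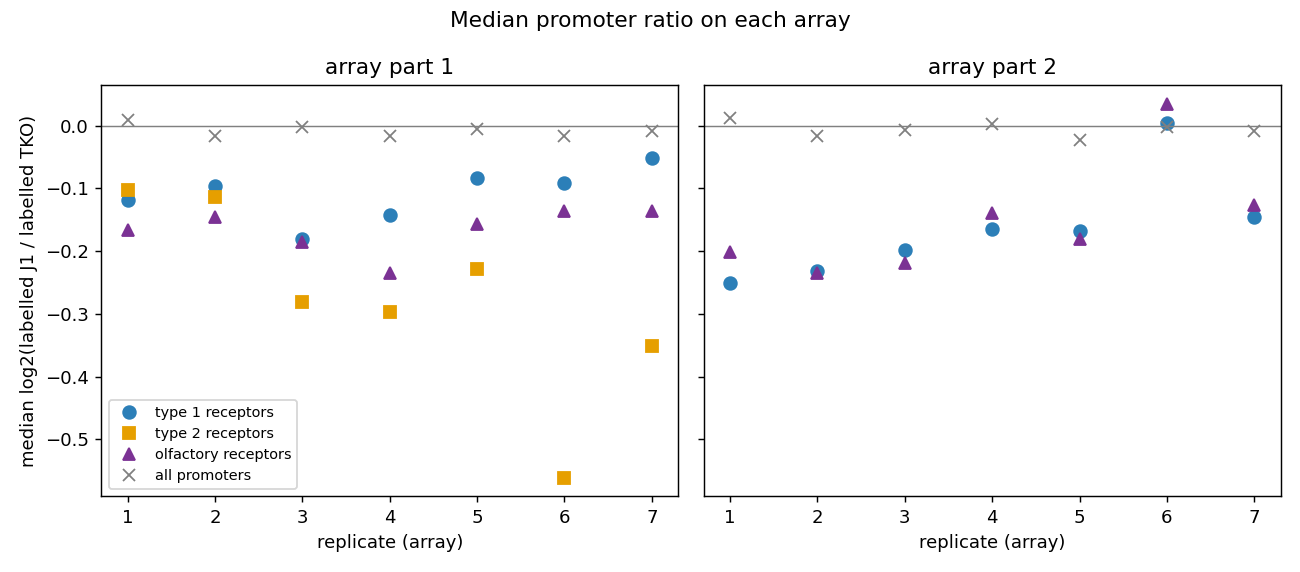
The median log2(labelled J1/labelled TKO) of type 1, type 2, olfactory receptor and all promoters (y axis) on each array (x axis) of part 1 (left) and part 2 (right, with no type 2 promoter). Type 1 medians lie between -0.18 and -0.05 on part 1 and between -0.25 and 0.0037 on part 2, where replicate 6 stands apart for type 1 and olfactory receptors alike.

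Further promoters whose nearest start is a vomeronasal receptor carry other names in the files and fall outside the rule. All 6 carry type 2 names (Vmn2r) as current symbols, and the comparison of families above leaves them out. Of these 6, AJ543404 (Vmn2r81) at -0.54 ± 0.21 and 1700108E19Rik (Vmn2r-ps54, a pseudogene) at -0.61 ± 0.23 were called on the labelled TKO side. Over all promoters, 2.63% were called on that side. V2r4 (Vmn2r42) was at -0.26 ± 0.05, Gm1961 (Vmn2r43) at -0.33 ± 0.08 and V2R2 (Vmn2r1) at -0.21 ± 0.16. All 7 arrays lay below 0 for these 5. C330014B19Rik (Vmn2r-ps105, a pseudogene) was at 0.07 ± 0.08, with 1 array below 0.

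The type 1 subfamilies differed in level. The 8 V1rg promoters had a median of -0.36, the 5 V1rf -0.30, the 6 V1ri -0.28 and the 9 V1re -0.21, all with every promoter below 0. These 4 subfamilies held all 6 calls. The 21 V1rc and the 12 V1rh promoters centred near 0 (medians -0.04 and -0.04, with 15 and 11 below 0). The 6 V1rb promoters had a median of 0.07, with 2 below 0.

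Brightness differed between the same subfamilies. Median log2 signals were 6.95 for V1re, 6.93 for V1rf, 7.06 for V1rg and 8.14 for V1ri, against 9.35 for V1rb and 9.22 for V1rh. With normexp and median centring the V1rg median was 0.00075, V1rf 0.18, V1ri 0.03 and V1re 0.13, so the sign of each turned in this setting. With normexp and loess they were -0.11, -0.05, -0.06 and -0.06. With bright probes only they kept their sign, at -0.39 (1 promoter left), -0.18 (1), -0.21 (5) and -0.20 (4).

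The V1ra subfamily was bright (9.83) and stayed below 0 in each of these settings. Its 8 promoters were all below 0, with a median of -0.18, and 6 passed the adjusted p. V1ra9 and V1ra6, named after their values were seen, are examples: V1ra9 was at -0.21 ± 0.09 and V1ra6 (Vmn1r42) at -0.20 ± 0.10, with all 7 arrays below 0 in both. The V1ra median was -0.13 with bright probes only, -0.13 with normexp and median centring and -0.12 with loess. The 2 V1rd promoters, with a median of -0.30, were at -0.32, -0.17 and -0.19 in the same settings.

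By chromosome, the 13 type 1 promoters on chromosome 7 had a median of -0.32 and the 12 on chromosome 17 a median of -0.24, all below 0. The 35 on chromosome 6 were at -0.05 and the 18 on chromosome 13 at -0.06. All promoters of these chromosomes had medians of -0.0092, 0.0055, -0.04 and -0.0008. Chromosome and subfamily overlap only in part. V1ra, V1rb and V1rc all lie on chromosome 6, with medians of -0.18, 0.07 and -0.04. V1rh and V1ri both lie on chromosome 13, with medians of -0.04 and -0.28. Subfamilies thus differed within a chromosome, and the part of each was not tested.

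The ratio also differed with position relative to the annotated start. Whether the starts used by the arrays are those of transcription or of the coding sequence was not checked. Type 1 probes from 0 to 400 bases inside the annotated start had a median of -0.21 (112 probes, 80.4% below 0), while all 17618 probes at that distance had a median of 0.06 (37.9% below 0). From -1000 to -600 bp the type 1 median was -0.03 (84 probes) and that of all probes -0.04. Between these, the type 1 medians were -0.12 and -0.18, where those of all probes were 0.03 and 0.06. Beyond -1000 bp the type 1 median was -0.08 (26 probes) and that of all probes -0.11, so the type 1 order from higher to lower holds only from -1000 bp on. Just inside the start, the type 1 median was below 0 on all 14 arrays, from -0.08 to -0.22 on part 1 and from -0.20 to -0.47 on part 2, with all probes between 0.0078 and 0.08.

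Inside the start the type 1 median was -0.20 with bright probes only, -0.13 with normexp and loess, -0.11 with normexp and median centring and -0.25 with mode centring. All probes were at 0.06, 0.03, 0.02 and 0.03 there. Upstream of the start the sign depended on the setting: the interval ending at the start was at -0.18, -0.09, -0.02 and 0.14 in the main, bright, loess and median settings. The few type 2 probes had medians of -0.25 from -1000 to -600 bp (4 probes), -0.17 and -0.32 in the intervals between (2 probes each) and -0.56 inside the start (2 probes).

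**Figure D4:**
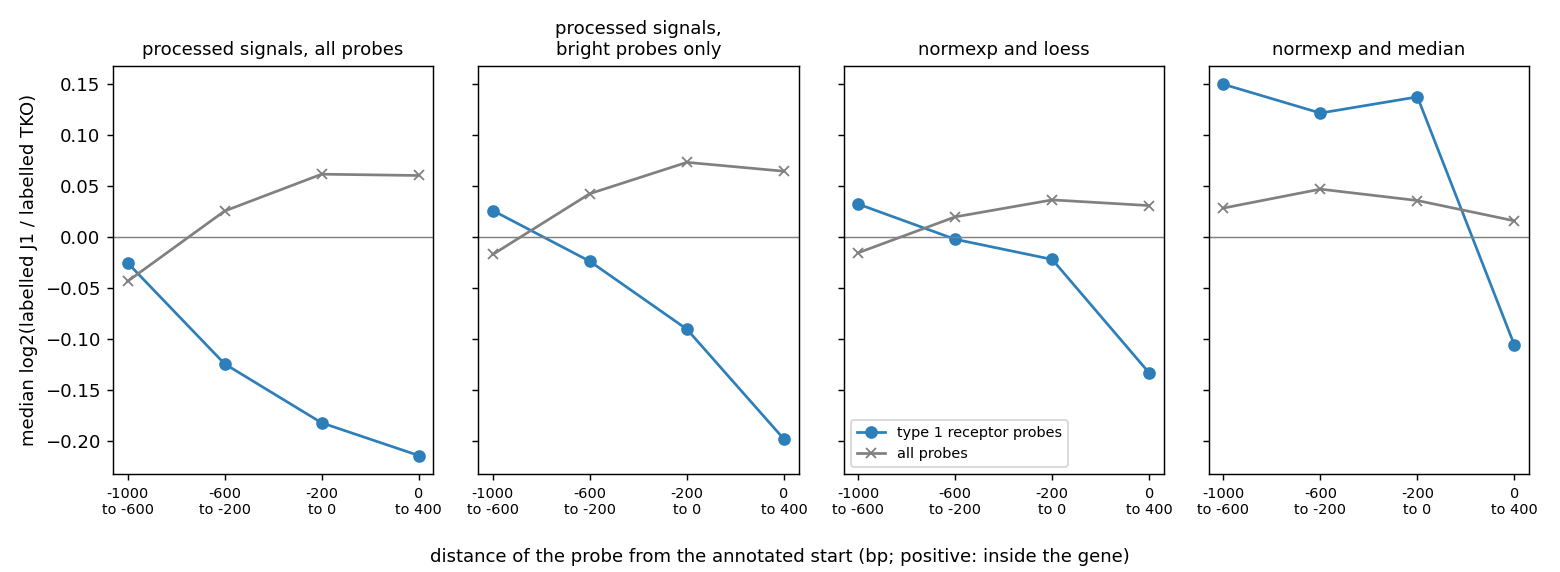
Median log2(labelled J1/labelled TKO) of type 1 receptor probes and of all probes (y axis) by distance from the annotated start (x axis, base pairs), in 4 processing settings (panels). In each panel the type 1 probes from 0 to 400 bases inside the start lie below 0 and below all probes, while upstream their level changes with the setting.

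Other chemoreceptor families lay on the same side. The 583 olfactory receptor promoters, which code for odour receptors of the nose, had a median of -0.17 (83.5% below 0), and 23 (3.95%) were called on the labelled TKO side. The 25 bitter taste receptor promoters had a median of -0.22. Both were as dim as type 1 (7.93 and 7.51), and with normexp and median centring their medians were 0.09 and 0.04. No test of a difference between these families and the vomeronasal receptors was run.

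Among genes that work with the receptors, the co-receptor promoters lay below 0 in 7 of 7, and H2-M10.3 (-0.69 ± 0.16, adjusted p = 7.9e-06) and H2-M10.5 (-0.64 ± 0.18, adjusted p = 1.7e-05) were called. With normexp and median centring these were at -0.22 and -0.21 and were not called. Of 11 promoter regions of ligand genes, mostly major urinary proteins (Mup), which carry and act as pheromones, 11 lay below 0, with a median of -0.31. These are not 11 separate genes: Mup1 is counted at -0.33, -0.39 and -0.31, and Mup2 at -0.36 and -0.38. Outside the Mup genes, Lcn3, Lcn4 and Obp1a lay at -0.11, -0.19 and -0.10. The median of the 11 regions stayed at -0.26 with normexp and median centring. Of 11 lineage regulators of the organ's neurons 10 lay above 0, with a median of 0.11, and of 21 signalling and neuron genes 12 did, with a median of 0.01. Gnao1 was at 0.29 ± 0.04 (adjusted p = 2.5e-05), Gnai2 at 0.03 ± 0.04 (adjusted p = 0.45) and Omp, a marker of mature sensory neurons, at -0.05 ± 0.11 (adjusted p = 0.33). Trpc2 had no probes within 1000 bases of its start.

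Most receptor probes were not well above background in either line. Of 126 member probes on the expression array, 92 (73%) were not well above background in any of the 6 channels of the 3 arrays, against 31.3% of all 41174 probes. Another 21 reached it in 1 channel, 10 in 2 to 4 channels and 3 in all 6. The type 1 family had 85 of 117 probes (72.6%) and the type 2 family 7 of 9 (77.8%) with no such channel. The olfactory receptors had 69.8% of 958.

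The number of members above background differed between arrays. On replicate 1 there were 15 in J1 and 29 in TKO, on replicate 2 there were 12 and 6, and on replicate 3 there were 3 and 3. TKO was in Cy3 on replicate 1 and J1 in Cy3 on replicate 2, so the larger count lay in Cy3 on these 2 arrays, while replicate 3, with TKO in Cy3, had equal counts. Over all probes the shares were 58.9% and 66.7% on replicate 1, 58.8% and 52.2% on replicate 2 and 39.5% and 38.5% on replicate 3. Spots left out of the ratios as uneven numbered 11, 57 and 8386 on replicates 1, 2 and 3. The part of the dye, or of spot quality, in these counts was not tested. The dye of each line on the expression arrays is not stated in the labels and was taken as likely, from the swap of replicate 2, the deposited ratios and the loss of Dnmt3b signal in TKO (log2 -2.50 ± 0.19, n = 3). In all, 2.38% of member probes were well above background in a line on all 3 arrays, against 39% of all probes.

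**Figure D5:**
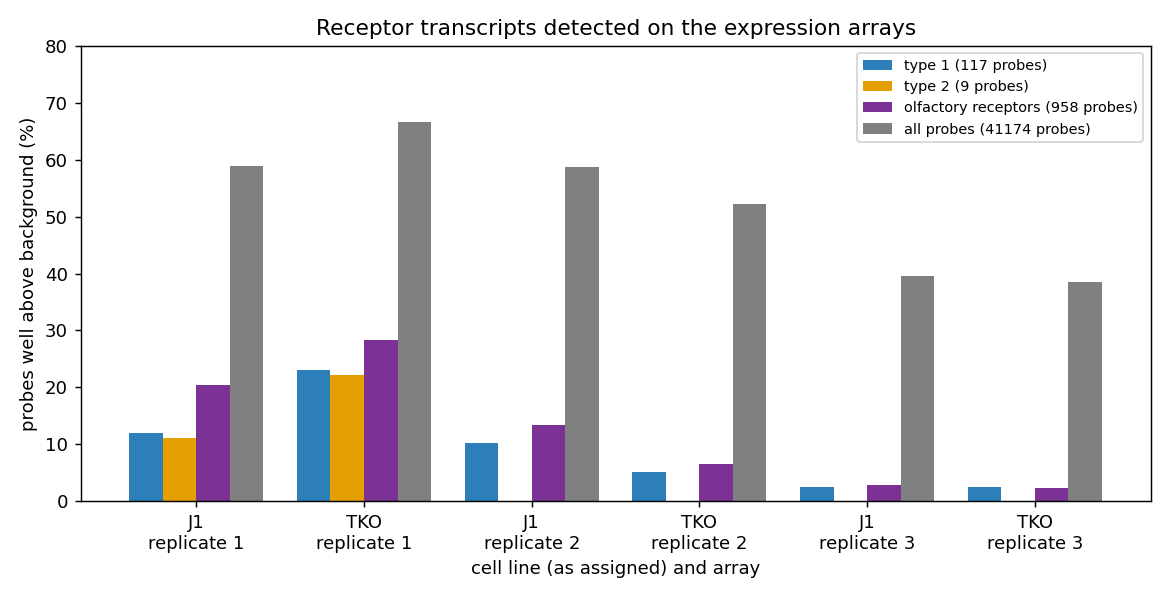
Bars give the percentage of probes well above background (y axis) for each line and array (x axis), for type 1, type 2 and olfactory receptor probes and all probes. Receptor probes stay at 28.3% or less in every channel, and vomeronasal receptor probes at 2.56% or less on replicate 3 for both types, where all probes are at 39.5% and 38.5%.

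The 3 probes tested were those of V1rb8, V1rc8 (Vmn1r25) and V1ri1 (Vmn1r192), all type 1, and 0 passed an adjusted p of 0.05, where 16% of the 16070 probes tested were higher and 14.6% lower in TKO (limma). For V1rb8 the signal in J1 was 2813, 1684 and 1592 on replicates 1 to 3, and in TKO 2380, 1382 and 1303. Its log2(TKO/J1) was -0.20, -0.17 and -0.25, with a mean of -0.20 ± 0.04 (SD over 3 arrays). The limma p was 0.028 unadjusted, the only one of the 3 under 0.05, and 0.079 adjusted. TKO was lower on all 3 arrays, by a small amount that did not pass the adjustment.

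V1rc8 had J1 signals of 612, 404 and 362 and TKO signals of 757, 389 and 364, with a mean log2(TKO/J1) of 0.06 ± 0.10 (adjusted p = 0.61). V1ri1 had J1 signals of 623, 373 and 257 and TKO signals of 415, 249 and 249, with a mean of -0.14 ± 0.13 (adjusted p = 0.26). Neither passed the threshold, and both means were smaller than or close to the SD over the arrays. With Agilent's processed signals V1ri1 came to -0.39, with an adjusted p of 0.04999.

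Both assays measured 73 members, and 61 of them were never well above background on the expression array. Of the 6 called promoters, 4 had a probe that was never well above background. Of the tested probes, V1rb8 had a promoter at 0.15 and V1rc8 one at -0.02, and V1ri1 had no promoter tested. V1ra4 (Vmn1r47), V1rb3 and V1ri10 (Vmn1r216) came next, with 4 of 6 channels well above background, and had promoters at -0.19, 0.13 and -0.32. The 5 promoters thus lay on both sides of 0.

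Genes of the lists below are each given by 1 probe, a tested one first and then the brightest. Of 25 signalling and neuron genes on the array, 11 were tested, with 4 lower and 2 higher in TKO. Over all probes of this list, 14 were tested, also with 4 lower and 2 higher. Over all 16070 probes tested, 14.6% were called lower and 16% higher. Trpc2, the channel both receptor types need, was lower at -0.62 ± 0.19 (n = 3, adjusted p = 0.0012). Nrp2, a guidance receptor, was at -0.80 ± 0.07 and Ncam1, an adhesion molecule, at -0.71 ± 0.12 (adjusted p = 0.00078 and 0.0016; the fit used 2 arrays for each, since replicate 3 was left out as uneven). Gnai2 was higher at 0.51 ± 0.44 on 2 arrays (adjusted p = 0.032) and at 0.19 (adjusted p = 0.41) without replicate 1.

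Gnao1 and Omp were not tested, with 0 arrays well above background in J1 and 2 in TKO for each. Of the lineage regulators, 5 of 13 were tested and 3 were higher in TKO, where 16% of all probes tested were. Among them Lhx2 was higher by 0.73 ± 0.11 (n = 3, adjusted p = 0.00026) and Meis2 by 0.66 ± 0.06 (2 arrays, adjusted p = 0.002). B2m, the light chain that H2-M10 molecules pair with, was higher by 0.84 ± 0.20 (n = 3, adjusted p = 0.00024), and 8 of the 10 co-receptor genes were never well above background. With median centring in place of loess, none of Nrp2, Ncam1, Gnai2, Lhx2, Meis2 and B2m passed the threshold, while Trpc2 did. In that setting 395 of all 16070 probes tested were higher and 682 lower, against 2565 and 2349 with loess. Of 9 ES cell marker genes 8 were well above background on all 3 arrays in both lines, of 9 sensory neuron markers 5 were, and of 6 feeder fibroblast markers 3 were. These markers moved too. Over all their probes, 10 ES cell, 6 sensory neuron and 4 fibroblast probes were tested. Of these, 4, 3 and 1 were lower in TKO, and 1, 0 and 2 were higher. The counts that follow are of genes, at 1 probe each. Of the 8 ES cell markers 3 were lower in TKO (Sox2 -0.80, Pou5f1 -0.72, Esrrb -0.45) and 1 was higher (Fbxo15 0.48). Of the 3 fibroblast markers 2 were higher (Col1a2 1.00, Col1a1 0.48) and 1 was lower (Vim -0.54). Of the 5 sensory neuron markers 3 were lower (Stmn2 -0.82, Ncam1 -0.71, Trpc2 -0.62) and 2 were not called. Sox2, Col1a2 and Trpc2 were fitted on 3 arrays and the other markers named here on 2. Over all probes tested, 16% were higher and 14.6% lower. The defining neuron marker Omp was not well above background on all 3 arrays in either line. The part of other cells in these values was not tested.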

How the data were processed

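DNA from methylated-DNA immunoprecipitation of J1 and TKO cells was measured on 7 arrays for each of 2 promoter array parts, and RNA on 3 expression arrays. Per the submitters' processing notes, images were read with Agilent Feature Extraction 8.5. Per the file headers, the authors' deposited intensity values are background-subtracted and dye-normalized, by a linear method for MeDIP and LOWESS for expression. The authors also deposited log10 ratios, used as an alternative and to find the likely dye of each line. The sources used here do not give the probes' genome build, and no probe coordinates are printed.

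The MeDIP processed signals gave log2 ratios, centred on each array's median. Probes of 1 transcript were split into promoters at gaps over 2000 bp, at least 3 probes were averaged, and limma 3.58.1 in R 4.3.3 tested the mean of 7 arrays against 0. Expression signals were corrected with normexp (offset 50) and loess, with replicate 2 turned for its dye swap. A probe was tested where 1 of the lines was well above background on each of the 3 arrays, and was called at an adjusted p under 0.05. The scripts were tested on simulated data. The number of arrays limits the precision. Genes were named by rule: all called promoters, the 4 lowest and 3 highest of each family, all tested probes, up to 4 called members of each partner list, and Trpc2, Gnai2, Gnao1 and Omp. One gene that the rule names is not reported here. V1ra4, V1ra6, V1ra9, V1rb3, V1rg12, V1ri10 and receptors under other file names were added after their values were seen. The members and lists were chosen with earlier results of these data known. Alternatives covered background, centring, probe filters, the size limit, slide code and single arrays.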

Additional observations from a re-analysis of the deposited data

Results flagged for a closer look

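In 7 of 20 groups of 7 arrays checked, 1 array stood apart from the others by Dixon's criterion. Chance meets it in about 1 in 20 groups that are independent and not picked by their values. Most of these groups were promoters named for calls or extreme means on the same arrays, and some groups overlap. That rate is therefore no yardstick for the 7. On part 1, V2r14 was at -0.698 on replicate 6 with its nearest other array at -0.312, and V1rc28 was at 1.02 on the same replicate with the nearest at 0.379. V1rb4 was at 0.921 on replicate 4 (nearest 0.266), and V1re11 at -1.10 on replicate 5 (nearest -0.575). V1rf3 was at -0.222 on replicate 3 of part 2 (nearest -0.509). The Omp promoter was at 0.191 on replicate 1 of part 1 (nearest -0.0143). The median of the type 1 promoters on part 2 was 0.00373 on replicate 6, with the nearest other array at -0.146.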

How the results depend on the processing

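The labelled TKO lean of the type 1 promoters depended on how background was treated. Their median was 0.043 with normexp and median centring, -0.050 with normexp and loess and -0.080 with bright probes only, and the type 2 median was -0.12 in the first of these. In these 3 settings 0 type 1 promoters were called, with 7, 31 and 22 past the adjusted p on the labelled TKO side and 8, 7 and 5 on the labelled J1 side. Across all promoters the calls were 16, 15 and 165 (0.11%, 0.103% and 1.22%). Past the adjusted p on the labelled TKO side were 8.97%, 39.7% and 44.9% of type 1 promoters against 14.1%, 28.8% and 26.8% of all, so type 1 lay below all promoters in the first setting and above in the others. Calls numbered 1 with probes bright in 1 channel (1.59% against 2.23% of all promoters), 2 with medians over probes (2.56% against 2.04%) and 16 of 78 at a size of 0.3 (against 1498 of 14529), and mode centring left 1 that passed on the J1-labelled side. Of the type 2 promoters 1 passed with normexp and median centring and 1 with bright probes. With normexp and median centring V1re1 turned to 0.13, V1re11 to 0.0079, V1rf3 to 0.16 and V1ri7 to 0.0052, and the medians of V1rc to 0.065, V1re to 0.13, V1rf to 0.18, V1rg to 0.00075, V1rh to 0.061, V1ri to 0.032 and V1rl to 0.021. The Gnai2 promoter was at -0.041, -0.017 and -0.013 with normexp and median centring, loess and mode centring. The cause was not tested. Leaving out 1 array gave 4 to 7 calls (4 without replicate 5 or 6 of part 1), 37 to 41 and 2 to 4 past the adjusted p on the 2 sides, and medians of -0.15 to -0.12 for type 1 and -0.31 to -0.23 for type 2. On the expression arrays 1 type 1 probe was lower in TKO with processed signals (V1ri1) and 1 with no filter (V1rb8, adjusted p = 0.038), where 117 type 1 and 9 type 2 probes were tested. The slide block could be fitted for part 2 only. The ratio of each array already pairs the lines. No paired analysis was possible because the groups that share replicate numbers are the 2 parts of the promoter array, which hold different promoters and were not compared with each other. Over replicate numbers, the type 1 medians of the 2 parts had r = 0.306 (exact permutation p = 0.495, n = 7) and rho = 0.464 (exact permutation p = 0.302). Without replicates 3 and 4, the 2 farthest from the middle by their part 1 medians alone, r was 0.347. Replicate 6, which stands apart on part 2, was kept there.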
